A study of Mus musculus with 6 samples.

Results

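The cytosolic ribosomal protein genes were followed in BV2 cells, an immortalised line of mouse microglia, after treatment with the cytokine IL-4. A gene was a member if its symbol was Rplp0, Rplp1, Rplp2 or Rpsa, or began with Rpl or Rps and a digit. Rps6k kinases and pseudogenes marked -ps were dropped. This gave 88 genes measured by 178 probes, out of 29752 genes or unnamed transcripts tested and 39429 probes on the array, and the brightest probe stood for each gene. Of the 88 genes, 77 encode standard ribosomal proteins, 46 of the large and 31 of the small subunit. The other 11 are like-named genes, namely Rpl3l, Rpl10l, Rpl22l1, Rpl32l, Rpl36al, Rpl39l, Rpl7l1, Rps4l, Rps23rg1, Rps27l and Rps19bp1. The last of these does not encode a ribosomal protein, as it is named for its binding to Rps19, and Rps4l is annotated as a transcribed pseudogene. Rps23rg1 is a retrogene, and whether the remaining like-named genes encode ribosomal proteins was not examined.

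Total RNA of 6 samples was hybridised to single-colour Agilent arrays, 1 array per sample. In 3 samples, recombinant murine IL-4 had been present in the medium at 10 ng/ml for 24 hr, and in 3 samples PBS for 24 hr. All cells were of 1 line grown on poly-L-lysine. No label tells whether replicates were separate cultures, so p-values measure the spread among these arrays, which may be technical. By the scan records in the files, slide 1 carried all IL-4 arrays together with PBS replicate 1, and slide 2 the other PBS arrays, replicates 2 and 3. Between 34655 (IL-4 replicate 1) and 38650 (PBS replicate 1) probes per array were well above background and no spot was saturated. All 10 markers of microglia and macrophages were well above background on all 6 arrays, and 3 of them, Tyrobp, Aif1 and Lyz2, were called lower with IL-4. The median log2 fold change of the 10 was -0.44, and -0.26 against PBS replicate 1. With any single array other than PBS replicate 1 left out, no gene at all was called lower. The part of these markers in the results on ribosomal proteins was not tested. No tested marker of astrocytes, neurons, oligodendrocytes, endothelium, fibroblasts or blood cells was called.

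Cytosolic ribosomes translate nearly all cellular mRNA, and each of their proteins is built into the small subunit, which reads the mRNA, or the large subunit, which joins the amino acids. The mRNAs of these proteins are among the most abundant in growing cells and most begin with a tract of pyrimidines, the 5' TOP motif, through which the kinase mTOR and the protein Larp1 control their translation. IL-4 acts on macrophages and microglia through Stat6 and is also known to signal through PI3 kinase and Akt, which lie upstream of mTOR. Array values report mRNA amount, not translation.

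The start of transcription carries the TOP motif, and windows around it are shown for the members with the highest and the lowest IL-4 differences. RefSeq promoter windows of GRCm38.p6 were matched by symbol for 67 of the 88 members, giving 79 windows. The short pyrimidine run CTTTC was searched on the sense strand in the 25 bases before and the 25 bases from each start. It was present in 20 of the 79 windows (25.3%), against 6.75% of all promoter windows of the same length. On the antisense strand it was present in 8.86% of member windows and 6.10% of all windows. CGGAAG, the core bound by ETS factors, was searched on both strands of the full 300 bases and was present in 59.5% of member windows and 16.9% of all windows. The motifs can share at most 1 base. A match describes letters only and says nothing of a factor. Capitals mark CTTTC. Rps21, Rps3, Rps12 and Rpl13 had 4 of the 6 highest IL-4 differences, and Rps19bp1, Rps26, Rpl15 and Rps15 the 4 lowest.
Rps21: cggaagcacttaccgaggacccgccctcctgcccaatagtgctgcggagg
Rps3: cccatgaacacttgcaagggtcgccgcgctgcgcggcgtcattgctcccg
Rps12: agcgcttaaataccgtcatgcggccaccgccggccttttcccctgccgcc
Rpl13: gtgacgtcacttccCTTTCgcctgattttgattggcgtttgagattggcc
Rps19bp1: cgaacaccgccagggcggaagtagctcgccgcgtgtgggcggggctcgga
Rps26: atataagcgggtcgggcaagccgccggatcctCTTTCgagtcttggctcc
Rpl15: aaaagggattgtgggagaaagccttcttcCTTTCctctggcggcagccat
Rps15: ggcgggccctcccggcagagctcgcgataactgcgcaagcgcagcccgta
On the plus strand, Rps21 lies at chr2:180257354-180257403, Rpl13 at chr8:123102325-123102374 and Rps15 at chr10:80292406-80292455. On the minus strand, Rps3 lies at chr7:99483685-99483734, Rps12 at chr10:23787185-23787234, Rps19bp1 at chr15:80264282-80264331, Rps26 at chr10:128626482-128626531 and Rpl15 at chr14:18270962-18271011. Rps21 has 2 listed starts, of which 1 is shown. CTTTC was thus present in the window of 1 of the 4 genes with high differences and of 2 of the 4 with low differences. A match anywhere in a window does not show a TOP tract, which begins the mRNA, nor does its absence show that none is there.

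No cytosolic ribosomal protein gene changed with IL-4 at an adjusted p under 0.05 (limma, Benjamini-Hochberg over all genes tested). The count was 0 of 88, where 3.35% of all tested genes were called, 0.807% higher and 2.54% lower. At an unadjusted p under 0.05, 30 of 88 members passed (34.1%), the same share as all genes (34.1%). They were unevenly split, with 25 higher (28.4%, against 16.6% of all genes) and 5 lower (5.68%, against 17.5%). The lowest adjusted p of a member was 0.052, for Rps21. The count rested on PBS replicate 1: without that array, both remaining PBS arrays are those of slide 2, and 22 members were called higher (25%, against 19.6% of all genes tested) and 12 lower (13.6%, against 23%). After normexp background correction with 75th percentile scaling, 13 members were called higher (14.8%, against 6.82% of all genes) and 1 lower (1.14%, against 6.81%), and calls over all genes split into 2030 higher and 2025 lower in place of 240 and 757. With slide as a block, no member was called, where 0.0303% of all genes were.

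The differences between groups were small for most members. Values are the log2 processed signal minus the 75th percentile of the array, and a difference is the mean of the IL-4 arrays minus the mean of the PBS arrays. Over the 88 members the median difference was 0.083, with a range from -0.54 to 0.79, while over all tested genes it was -0.052. The sign of the members' median depended on the scaling, since it was below 0 after quantile normalization (-0.078), after normexp with quantile normalization (-0.089) and in the authors' deposited table (-0.061). Under 75th percentile scaling, 54 of 88 members had a difference above 0 (61.4%, against 43.5% of all genes). Under all 7 scalings, 28 members stayed above 0 (31.8%, against 37.5% of all genes), 29 stayed below 0 (33.0%, against 49.5%), and 31 had both signs.

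Separation of the groups was also counted array by array. All 3 IL-4 arrays were above all measured PBS arrays for 32 of 88 members (36.4%, against 18.7% of all genes). They were below all measured PBS arrays for 4 members (4.55%, against 19.8%). Most members are bright, which most tested genes are not. Of 334 tested genes outside the family with a mean level above 5.83, 192 had all IL-4 arrays above all PBS arrays and 17 below. Of the 38 standard members above that level, 23 were separated upward and 0 downward. Of the 32, 27 also had a difference above 0 under all 7 scalings (30.7%, against 18.4% of all genes). The 4 separated downward, Rps19bp1, Rps26, Rps27l and Rpl21, were below 0 under all 7 scalings.

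**Figure D1:**
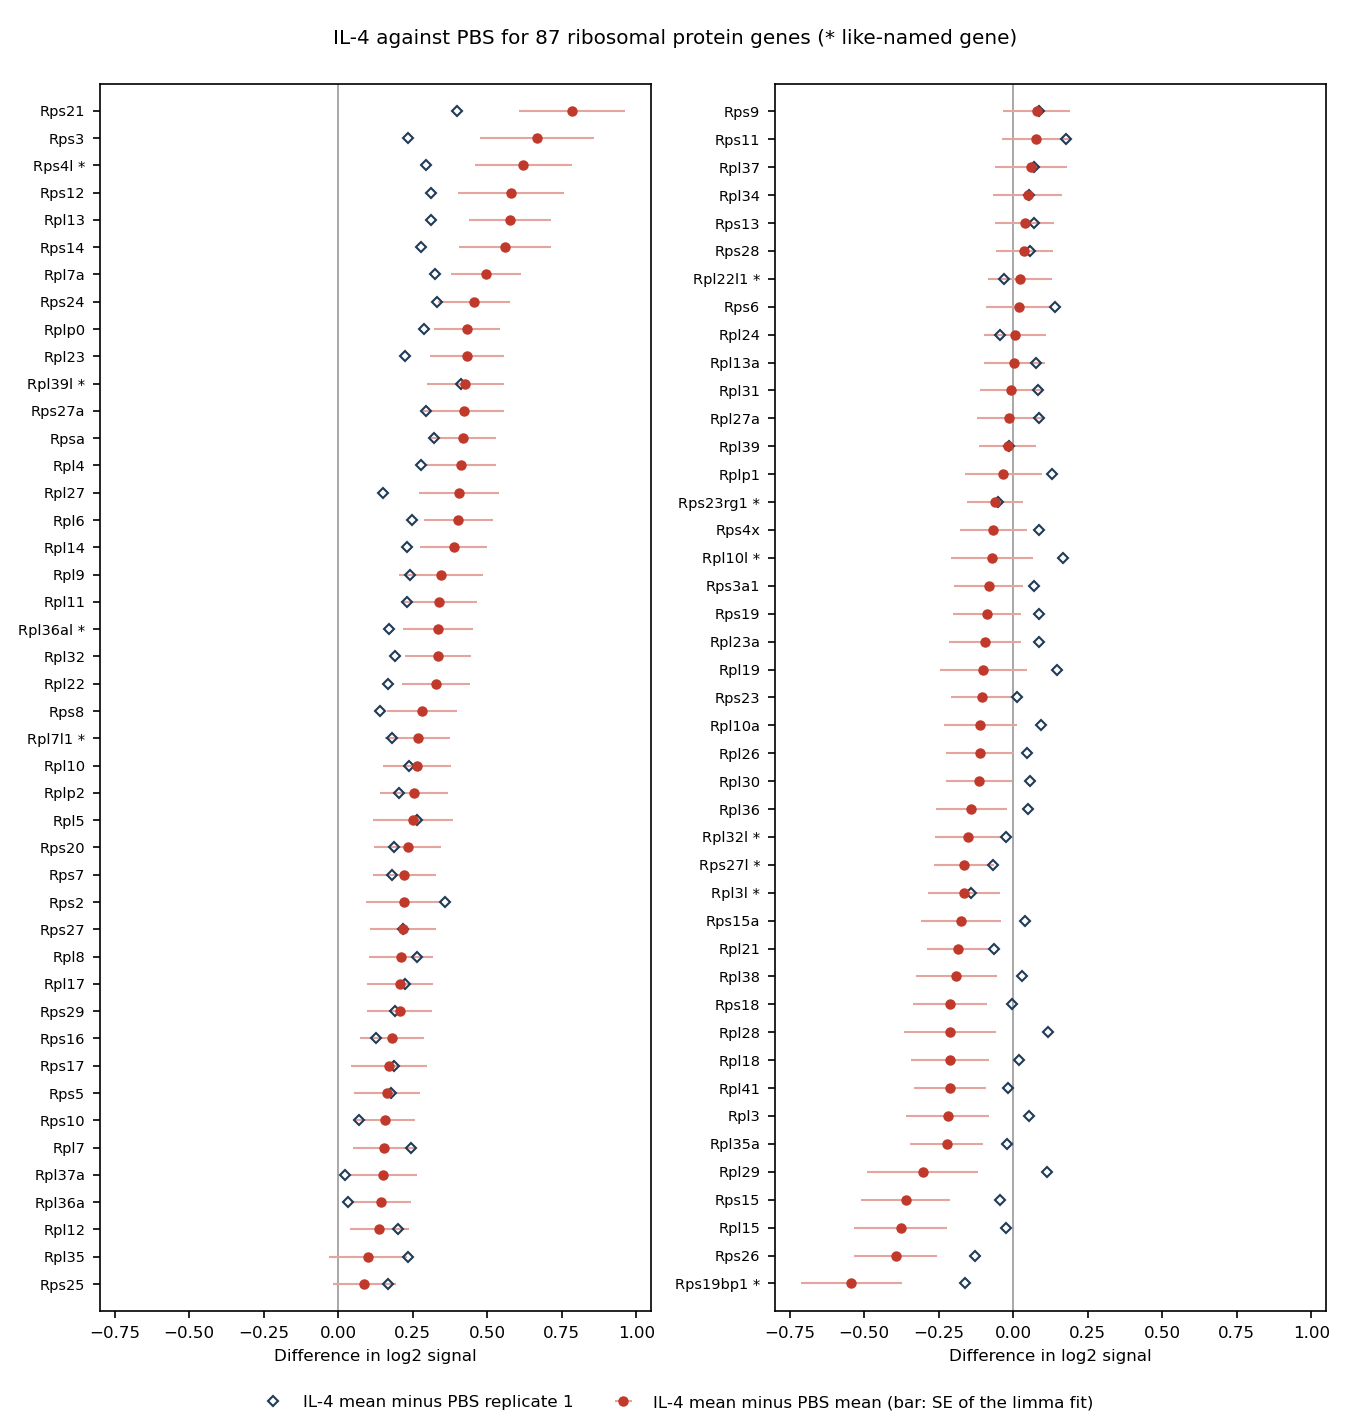
Difference in log2 signal for 87 of the 88 genes, ordered from highest to lowest, as the IL-4 mean minus the PBS mean (red points, bars are the SE of the limma fit) and as the IL-4 mean minus PBS replicate 1 (open diamonds). Differences run from -0.54 to 0.79 against all PBS arrays and from -0.16 to 0.41 against PBS replicate 1. Under quantile normalization the members' medians against both controls lie below 0.

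Within slide 1 the only PBS array is replicate 1, so a difference from it has no replicate of the control. Against PBS replicate 1, the members' median difference was 0.14 and that of all genes 0.0055. Without IL-4 replicate 1 they were 0.085 and 0.040. The mean of the IL-4 arrays was above PBS replicate 1 for 72 of 88 members (81.8%, against 51.2% of all genes). All 3 IL-4 arrays were above it for 51 members (58.0%, against 30.5%) and below it for 6 (6.82%, against 25.5%). Of the 334 bright genes outside the family, 298 had an IL-4 mean above PBS replicate 1. All 3 IL-4 arrays were above it for 260 of them and below it for 18. The direction of the members also depended on the scaling, with a median of -0.0092 after quantile normalization, -0.018 after normexp with quantile normalization and -0.0097 in the authors' deposited table.

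The arrays of a group were not alike for these genes. Among the IL-4 arrays, replicate 1 gave the highest value for 75 of 88 members and replicate 2 the lowest for 83. Relative to PBS replicate 1, the members' median was 0.22 on IL-4 replicate 1, 0.031 on IL-4 replicate 2 and 0.13 on IL-4 replicate 3. It was 0.13 on PBS replicate 2 and -0.014 on PBS replicate 3. The medians of PBS replicates 2 and 3 thus lay within or just below the range of the IL-4 arrays, while their members scattered more widely. The SD of the difference from PBS replicate 1 over members was 0.12 to 0.16 for the IL-4 arrays, which share its slide, and 0.26 and 0.28 for PBS replicates 2 and 3, which do not. Over all tested genes the same SD was 0.23 to 0.32 and 0.42 to 0.43. PBS replicate 1 minus the mean of PBS replicates 2 and 3 ranged from -0.63 to 0.65 over members, about as wide a span as the IL-4 differences. It was above 0 for 36 of 88 members (40.9%, against 40.2% of all genes). Of the 85 members measured on all PBS arrays, 25 had PBS replicate 1 above both others (29.4%, against 31.9% of all genes) and 41 below both (48.2%, against 50.6%).

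**Figure D2:**
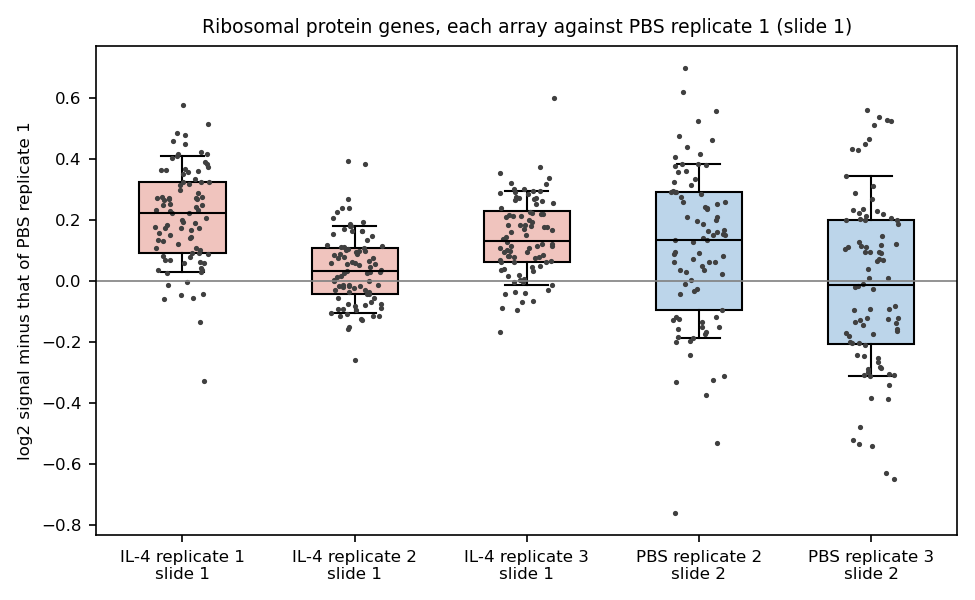
Log2 signal of each ribosomal protein gene minus its value on PBS replicate 1, for the other 5 arrays (points are genes, boxes are quartiles with the median, whiskers are the 10th and 90th percentiles). Values on IL-4 arrays, which share slide 1 with PBS replicate 1, are less scattered (SD 0.12 to 0.16) than those on PBS replicates 2 and 3 of slide 2 (SD 0.26 and 0.28).

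The small subunit held the genes with the highest differences. Rps21, a protein of the small subunit's solvent side, read 6.40, 6.09 and 6.18 on IL-4 replicates 1, 2 and 3 and 5.82, 5.29 and 5.19 on PBS replicates 1, 2 and 3. All IL-4 arrays were above all PBS arrays, and PBS replicate 1 was the nearest to them. The difference was 0.79 ± 0.18 (SE), or 1.72-fold, with adjusted p = 0.052 (limma), and 0.40 against PBS replicate 1. Rps3, which lines the mRNA entry channel and also works in DNA repair, read 4.70, 4.49 and 4.47 with IL-4 and 4.32, 3.56 and 3.78 with PBS. Again the groups did not overlap and PBS replicate 1 was nearest to the IL-4 arrays. Its difference was 0.67 ± 0.19 (adjusted p = 0.067), and 0.23 against PBS replicate 1. Rps14, which helps to form the decoding platform, read 6.81, 6.51 and 6.69 with IL-4 and 6.39, 6.07 and 5.87 with PBS. The difference of Rps14 was 0.56 ± 0.15 (adjusted p = 0.064), and 0.28 within slide 1. Rps12 read 6.73, 6.55 and 6.61 with IL-4 and 6.32 and 5.78 on PBS replicates 1 and 3, as its spot on PBS replicate 2 was flagged as an outlier and left out. Its difference over 5 arrays was 0.58 ± 0.18 (adjusted p = 0.079). For Rps21, Rps3, Rps14 and Rps12 the value on PBS replicate 1 exceeded that on every other measured PBS array by more than the IL-4 arrays differed among themselves.

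At the other end of the small subunit, Rps26, which sits at the mRNA exit site, read 1.95, 1.93 and 1.99 with IL-4 and 2.09, 2.37 and 2.60 with PBS. Its groups did not overlap, with a difference of -0.39 ± 0.14 (adjusted p = 0.096) and -0.13 against PBS replicate 1. Rps15, which takes part in export of the small subunit from the nucleus, read 2.44, 2.28 and 2.37 with IL-4 and 2.41, 2.83 and 2.94 with PBS. PBS replicate 1 lay among the IL-4 arrays, and the difference of -0.36 ± 0.15 (adjusted p = 0.13) came to -0.046 within slide 1. Over the 31 standard small-subunit genes the median difference was 0.16, with 23 above 0 under 75th percentile scaling. Against PBS replicate 1 it was 0.17, with 28 above 0.

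Several small-subunit proteins have roles of their own. Rps6, the classical substrate of the S6 kinases, differed by 0.019 ± 0.11 (adjusted p = 0.91), and its sign turned under 4 of the 7 scalings. Rpsa, which doubles as a laminin receptor, read 6.60, 6.34 and 6.46 with IL-4 and 6.15, 6.03 and 5.98 with PBS. Its groups did not overlap, and its difference was 0.42 ± 0.11 (adjusted p = 0.062), or 0.32 against PBS replicate 1. Rps27a, which is made as a fusion with ubiquitin, differed by 0.42 ± 0.14 (adjusted p = 0.081) with groups apart. Rps19, the gene most often mutated in Diamond-Blackfan anaemia, differed by -0.088 ± 0.11 (adjusted p = 0.60). Its difference was 0.086 within slide 1.

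**Figure D3:**
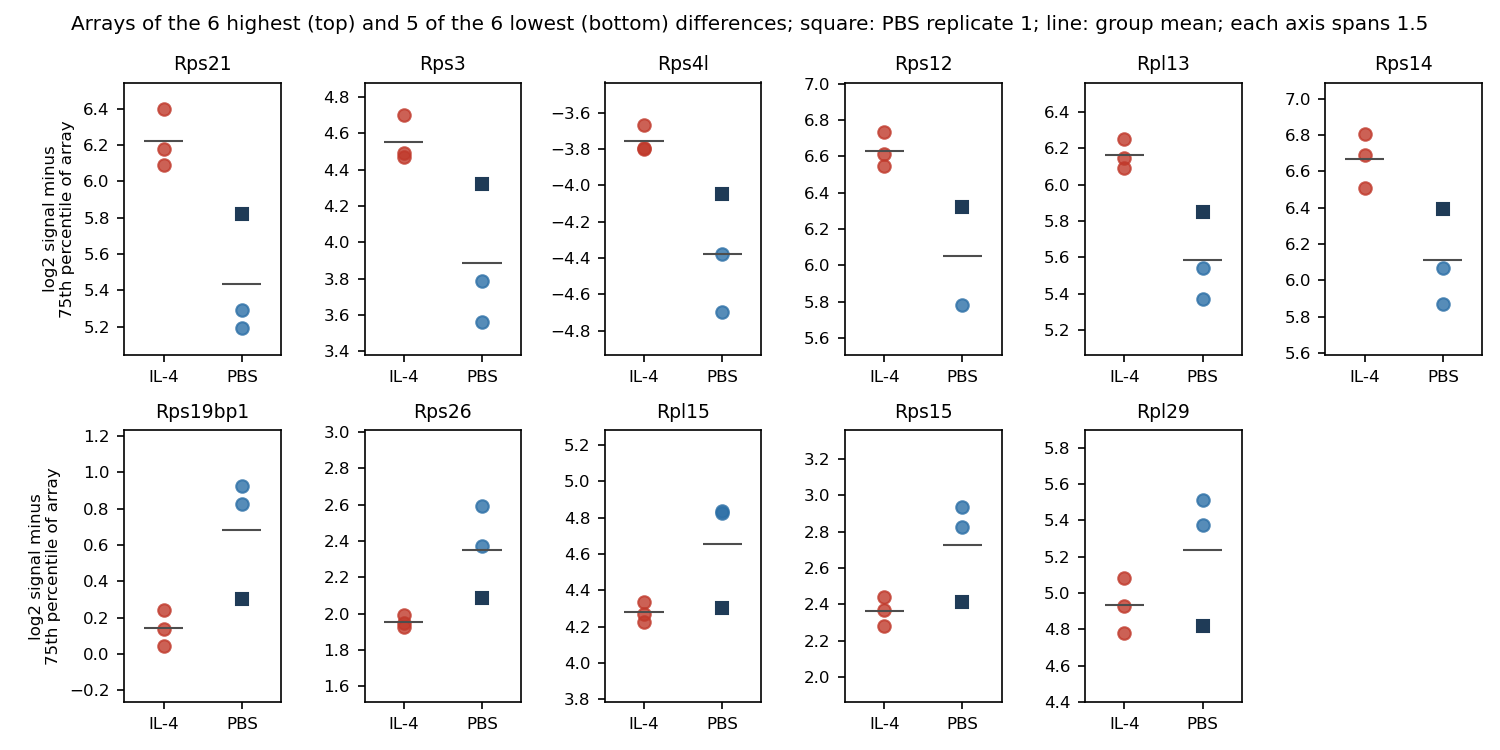
Log2 signal minus the 75th percentile of the array, by group, for the 6 members with the highest (top) and 5 of the 6 with the lowest (bottom) IL-4 differences, 1 point per array, with group means as lines and PBS replicate 1 as a square. All 6 upper genes have IL-4 arrays above all PBS arrays, PBS replicate 1 lies nearest the IL-4 arrays, and Rps12 has 2 PBS points. In the lower row, PBS replicate 1 is the lowest PBS array for all 5 genes. Every gene drawn kept its sign under all 7 scalings.

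The stalk of the large subunit recruits elongation factors and is built from 3 of the members. Rplp0, the stalk's base, read 6.70, 6.53 and 6.62 with IL-4 and 6.33, 6.14 and 6.08 with PBS. The groups did not overlap, and its difference was 0.43 ± 0.11 (adjusted p = 0.059), or 0.29 against PBS replicate 1. These values are of its brightest probe, at level 6.40. Its other probes, at levels 6.15 and 5.90, gave differences of 0.11 and -0.049. Rplp2, which pairs with Rplp1 on that base, read 6.93, 6.67 and 6.81 with IL-4 and 6.60, 6.62 and 6.43 with PBS, a difference of 0.25 ± 0.11 (adjusted p = 0.16). Rplp1 read 4.31, 4.09 and 4.17 with IL-4 and 4.06, 4.44 and 4.17 with PBS, with overlapping groups and a difference of -0.033 ± 0.13 (adjusted p = 0.87). None of the 3 passed the test, and the differences between them were not tested.

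In the rest of the large subunit, Rpl13 had the highest difference. It read 6.25, 6.09 and 6.15 with IL-4 and 5.85, 5.54 and 5.37 with PBS. The difference was 0.58 ± 0.14 (adjusted p = 0.055), and 0.31 within slide 1. Rpl7a, a surface protein with a role in processing of the ribosomal RNA, differed by 0.50 ± 0.12 (adjusted p = 0.054), and 0.33 within slide 1, with groups apart. Lowest was Rpl15, an early-assembling protein, which read 4.34, 4.23 and 4.27 with IL-4 and 4.30, 4.83 and 4.84 with PBS. PBS replicate 1 fell inside the range of the IL-4 arrays, so that a difference of -0.38 ± 0.16 (adjusted p = 0.13) over all arrays was -0.024 within slide 1. Rpl29, which also binds heparin, read 5.08, 4.78 and 4.93 with IL-4 and 4.82, 5.51 and 5.37 with PBS. Its difference was -0.30 ± 0.19 (adjusted p = 0.27) over all arrays and 0.11 against PBS replicate 1, so the sign turned with the control used. Over the 46 standard large-subunit genes the median difference was 0.053, with 26 above 0 under 75th percentile scaling, and against PBS replicate 1 it was 0.12, with 39 above 0.

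Rpl5 and Rpl11, which together with 5S ribosomal RNA can bind Mdm2 and stabilise p53, differed by 0.25 ± 0.13 (adjusted p = 0.22) and 0.34 ± 0.13 (adjusted p = 0.11). The IL-4 arrays of Rpl11 were all above its PBS arrays, whereas those of Rpl5 overlapped. Rpl3 and Rpl10, which reach toward the peptidyl transferase centre and the sites of tRNA binding, differed by -0.22 ± 0.14 (adjusted p = 0.29) and 0.26 ± 0.11 (adjusted p = 0.15). Rpl10 had groups apart and kept its sign under all 7 scalings. Rpl13a, known for silencing inflammatory mRNAs in macrophages after its release from the ribosome, read 5.31, 5.12 and 5.22 with IL-4 and 5.14, 5.27 and 5.23 with PBS. Its groups overlapped, and its difference of 0.003 ± 0.10 (adjusted p = 0.99) had both signs among the scalings.

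Like-named genes were set beside the standard genes whose names they resemble. Levels of different probes were not compared, as a probe's brightness also depends on its sequence. Rpl22l1, which can replace Rpl22, differed by 0.022 ± 0.11 (adjusted p = 0.90), where Rpl22 differed by 0.33 ± 0.11 (adjusted p = 0.093). Rps27l, a target of p53, differed by -0.16 ± 0.10 (adjusted p = 0.27) and Rps27 by 0.22 ± 0.11 (adjusted p = 0.20). The IL-4 arrays of Rps27l read 3.11, 3.04 and 3.11 and its PBS arrays 3.15, 3.35 and 3.24, so that the groups did not overlap although the gap was small. The difference was 0.34 ± 0.12 (adjusted p = 0.093) for Rpl36al and 0.14 ± 0.10 (adjusted p = 0.33) for Rpl36a. It was 0.27 ± 0.11 (adjusted p = 0.13) for Rpl7l1 and 0.15 ± 0.11 (adjusted p = 0.32) for Rpl7. Rpl32l differed by -0.15 ± 0.11 (adjusted p = 0.34) and Rpl32 by 0.33 ± 0.11 (adjusted p = 0.085). Rps23rg1 differed by -0.062 ± 0.094 (adjusted p = 0.66) and Rps23 by -0.10 ± 0.11 (adjusted p = 0.50), the latter being 0.011 against PBS replicate 1. Rpl32l, Rpl32, Rps23rg1 and Rps23 kept their signs under all 7 scalings. The differences between the genes of a pair were not tested.

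Some like-named genes are best known from other tissues and were dim here. Rpl39l, described in germ cells, read -3.76, -3.61 and -3.40 with IL-4 and -4.00, -4.15 and -3.89 with PBS. The groups did not overlap, and the difference was 0.43 ± 0.13 (adjusted p = 0.071), and 0.41 against PBS replicate 1, the highest of all members within slide 1. Rpl39l was called higher by limma after quantile normalization (0.46, adjusted p = 0.035) and in the authors' table (0.46, adjusted p = 0.034). It was also called without PBS replicate 1 (0.43, adjusted p = 0.041), but fell to 0.20 with normexp and the 75th percentile. Its counterpart Rpl39 differed by -0.019 ± 0.095 (adjusted p = 0.90). Rpl39 was called lower with normexp and quantile normalization (-0.25, adjusted p = 0.047). Rps4l read -3.80, -3.67 and -3.80 with IL-4 and -4.05, -4.38 and -4.70 with PBS, a difference of 0.62 ± 0.16 (adjusted p = 0.061), where Rps4x differed by -0.067 ± 0.11 (adjusted p = 0.69). The muscle gene Rpl3l differed by -0.17 ± 0.12 (adjusted p = 0.34), and the testis gene Rpl10l by -0.071 ± 0.14 (adjusted p = 0.73). Rps19bp1, also known as a partner of the deacetylase Sirt1, had the lowest difference of all. It read 0.24, 0.043 and 0.14 with IL-4 and 0.30, 0.92 and 0.83 with PBS, a difference of -0.54 ± 0.17 (adjusted p = 0.075). Its groups did not overlap, and it was -0.16 against PBS replicate 1.

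Within the standard genes, the signed difference tended to be higher for brighter probes. By the brightest probe of each gene, 78 of 88 members (88.6%) lay above the 90th percentile of level over tested genes. Over the 77 standard genes, the correlation of mean level with the difference was r = 0.64 (Spearman's rho 0.71), a description over genes that share the same 6 arrays and are not independent. The 38 brightest, with a level above 5.83, had a median difference of 0.26 and 35 above 0, and the other 39 a median of -0.088 and 14 above 0. Among these 39 were Rps21 and Rps3, which had the highest differences of all members. The 334 tested genes outside the family above the same level had nearly the same median, 0.26, and 289 of them (86.5%) were above 0. Genes outside the family between that level and the lowest level of a standard gene, 2.15, were 3731 in all and had a median difference of -0.036. Their median level was 3.43, below the 5.11 of the other 39 standard genes. The bright members thus differed by about as much as other bright genes.

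The same correlation was taken with other controls. For the difference from PBS replicate 1, r was 0.60 and rho 0.62. For PBS replicate 1 minus PBS replicates 2 and 3, r was 0.57 and rho 0.66. PBS replicate 1 enters both of these comparisons and also that of IL-4 with all PBS arrays. The latter comparison further shares its IL-4 arrays with the former of these, and PBS replicates 2 and 3 with the other. The correlations therefore stand side by side and are not independent of each other. The part of brightness in the IL-4 differences was not tested. After quantile normalization the 38 brightest genes had a median of 0.055 with 22 above 0, and the other 39 a median of -0.24 with 4 above 0. The bright genes outside the family then had a median of 0.029, and r over the standard genes was 0.47. Quantile normalization, which gives all arrays the same distribution, thus gave lower medians for both the bright members and the other bright genes.

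**Figure D4:**
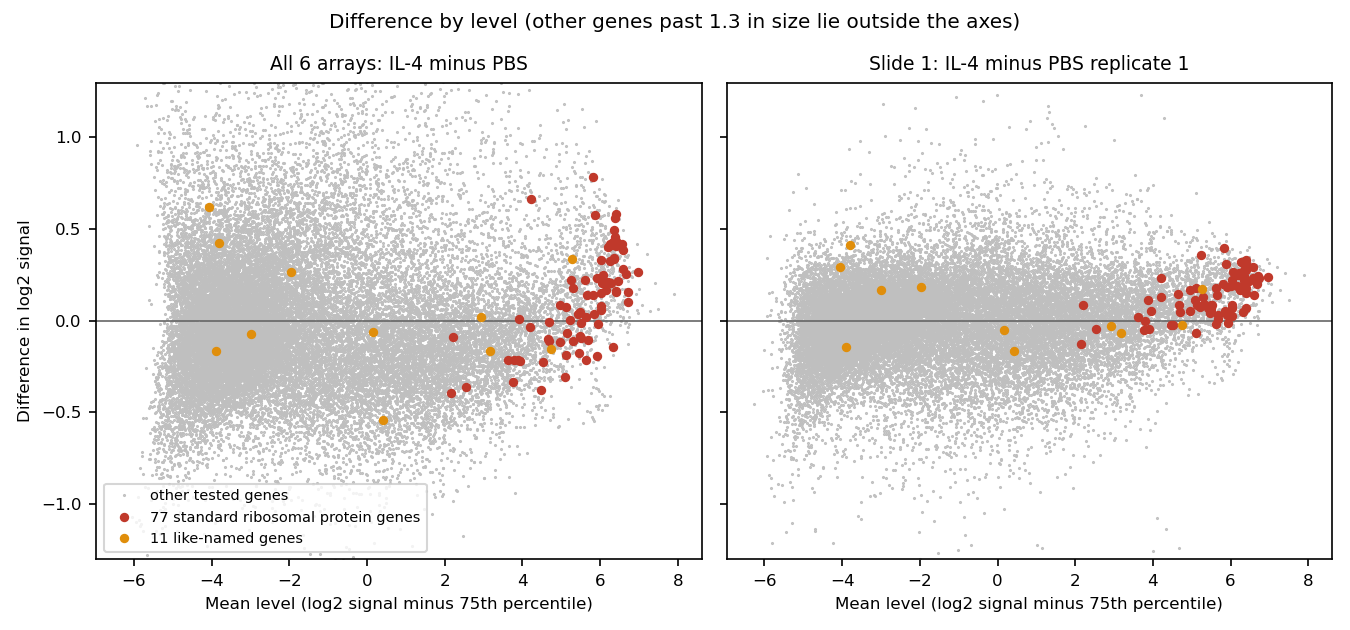
Difference in log2 signal against mean level (log2 signal minus the 75th percentile) for standard ribosomal protein genes (red), like-named genes (orange) and other tested genes (grey), for all arrays (left) and against PBS replicate 1 (right). The 38 brightest standard genes have a median of 0.26 on the left, and 0.055 after quantile normalization, and they lie among other bright genes, whose median was also 0.26.

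Probes of 1 gene often disagreed. Of the 53 members with several tested probes, 19 had all probes on the same side of 0 and 34 had probes on both sides. The median range of the difference within a gene was 0.36, and the range was above 0.5 for 14 genes. Of the 90 probes beside the brightest, 67 had a lower difference than the brightest probe of their gene. The brightest probes of these genes had a median of 0.14 and the others of -0.050, and with the mean over each gene's probes in place of the brightest the members' median was 0.030, with 45 of 88 above 0.

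The widest range was that of Rpl22, an RNA-binding protein with roles in lymphocyte development. Its brightest probe, at level 6.25, gave 0.33 ± 0.11, and its other probe, at level 0.57, gave -0.74 ± 0.12. The second probe passed in a limma fit over all tested probes (adjusted p = 0.035), as did a dim probe of Rpl15 at level 0.23 (-0.79 ± 0.12, adjusted p = 0.029). These were the only 2 of 178 member probes called lower (1.12%, against 2.92% of all probes tested), and none was called higher. Against PBS replicate 1 they gave -0.54 and -0.58. Rps24, whose mRNA is spliced into several forms, had probes for 3 RefSeq transcripts, with differences of 0.46, -0.11 and 0.53 from the brightest to the dimmest. In Rps3a1 the direction was the other way round, -0.083 for the brightest probe and 0.49 for a probe only slightly dimmer. Rpl13 (0.58, -0.051 and -0.19), Rpl23 (0.43, 0.20 and -0.46), Rps29 (0.21, -0.017 and -0.55) and Rpl11 (0.34, 0.092 and -0.20) declined in order of brightness. Rpl14 gave 0.39 and -0.30, Rps12 0.58 and -0.00035, and Rpl21 -0.18, -0.28 and 0.32. Rpl10 gave 0.26, 0.20 and -0.25, Rps27 0.22, 0.093, 0.21 and -0.29, and Rpsa 0.42, -0.090, 0.18 and -0.044. Only Rpl7a among the 14 kept all its probes on the same side, at 0.50, 0.58, 0.34 and 0.052. For 62 of the 88 members the reference lists at least 1 pseudogene marked -ps, 316 in all, and whether probes also bind pseudogene transcripts was not tested.

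Other genes of translation were set beside the ribosomal proteins. Fau and Rack1, which belong to the cytosolic ribosome under other names, differed by 0.039 ± 0.11 (adjusted p = 0.82) and 0.36 ± 0.11 (adjusted p = 0.072). Rack1, the scaffold on the small subunit, read 6.49, 6.27 and 6.43 with IL-4 and 6.14, 6.01 and 5.94 with PBS, with no overlap. None of 19 genes for elongation and other TOP mRNAs was called, with a median difference of 0.095 under 75th percentile scaling and -0.067 after quantile normalization, and of 0.17 against PBS replicate 1. Among them, Eef1a1, which brings tRNA to the ribosome, differed by 0.36 ± 0.11 (adjusted p = 0.072) and Eef2, which moves the ribosome along, by 0.39 ± 0.13 (adjusted p = 0.083), both with groups apart. None of 35 initiation and termination factors and none of 31 genes of mTOR signalling, the S6 kinases and translation control was called, with medians of -0.027 and -0.16. Against PBS replicate 1 these medians were 0.093 and -0.0031, and that of the initiation and termination factors was also above 0 on leaving out IL-4 replicate 2 (0.020) or either PBS array of slide 2 (0.013 and 0.019). In the latter list Eif4ebp1, the mTOR-regulated repressor of cap binding, differed by -0.23 ± 0.11 (adjusted p = 0.17), Rps6kb1, the S6 kinase, by -0.19 ± 0.10 (adjusted p = 0.22) and Myc by -0.050 ± 0.15 (adjusted p = 0.83).

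For 44 genes of ribosome biogenesis, the median was 0.033 over all arrays and 0.18 against PBS replicate 1. Of these genes 1 was called, in the downward direction, where 2.54% of all genes were called lower. The median was -0.0010 without IL-4 replicate 1 and -0.0031 without PBS replicate 1. The gene called was Mrto4, an assembly factor of the stalk, which read 0.62, 0.65 and 0.70 with IL-4 and 1.09, 1.20 and 1.26 with PBS. It was lower by a log2 difference of -0.53 ± 0.098 (adjusted p = 0.040), and -0.44 against PBS replicate 1. Of 78 mitochondrial ribosomal proteins, which belong to a separate ribosome inside mitochondria, none was called higher and 4 were called lower (the background is 2.54% of all genes). Mrpl34 read -1.36, -1.20 and -1.28 with IL-4 and -0.35, 0.16 and 0.26 with PBS, a difference of -1.31 ± 0.17 (adjusted p = 0.025), and -0.93 against PBS replicate 1. Mrpl42, Mrps31 and Mrpl11 were lower by -0.85, -0.74 and -0.66 (adjusted p = 0.026, 0.032 and 0.035). For all 4 the groups were apart and the difference against PBS replicate 1 was -0.48 or lower. The median of the 78 was -0.23 over all arrays and -0.034 against PBS replicate 1, and 32 of them had all IL-4 arrays below all PBS arrays, where 19.8% of all genes did. These calls in the comparison lists, 5 lower in all, were lost with slide as a block. They were also lost when any single array other than PBS replicate 1 was left out. Without PBS replicate 1, 20 genes of the lists were called higher and 77 lower, where 19.6% and 23% of all genes were.

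**Figure D5:**
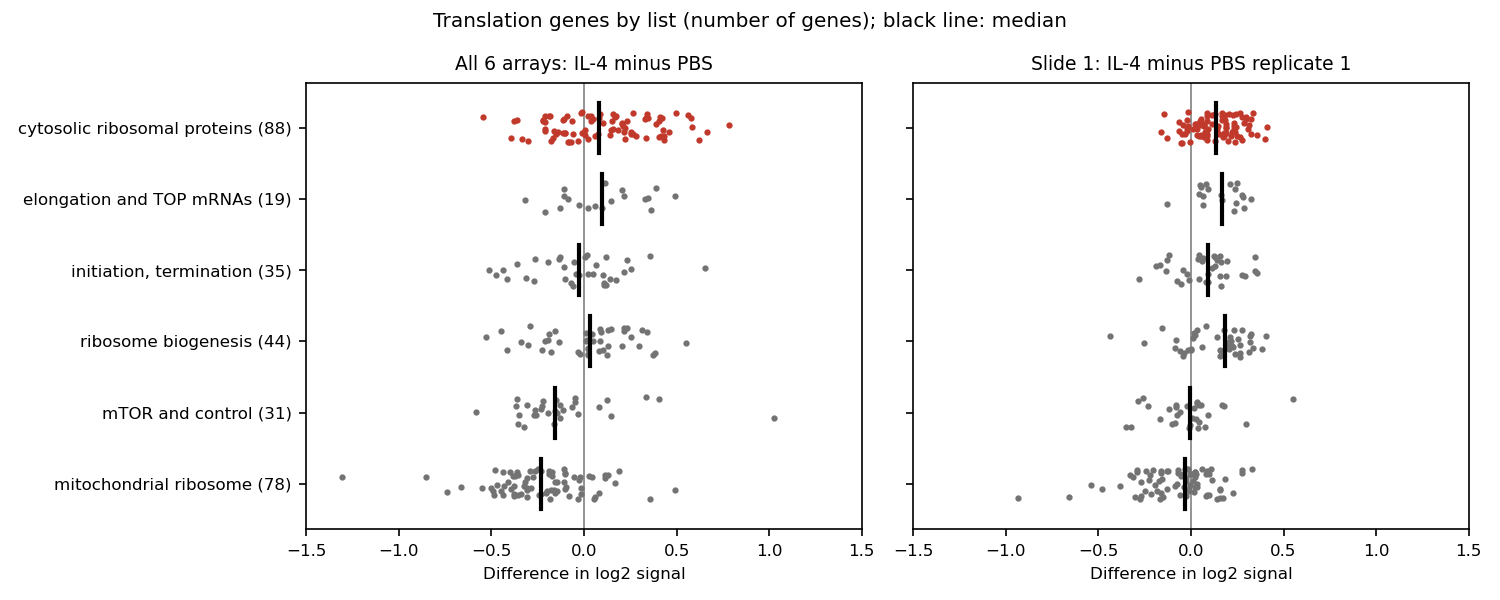
Difference in log2 signal for the genes of each translation list (points) with the list's median (black line), as IL-4 minus PBS over all arrays (left) and as IL-4 minus PBS replicate 1 (right). Cytosolic ribosomal proteins have medians of 0.083 and 0.14, both below 0 after quantile normalization, and mitochondrial ribosomal proteins medians of -0.23 and -0.034.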

How the data were processed

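Linear spot intensity was deposited by the authors as scanner output of Agilent Feature Extraction (version 11.0.1.1, per the file headers). Per the file headers, that program had subtracted background and detrended each array to give the processed signal. A value table deposited by the authors is on a log2 scale, from its values, with 1 set of quantiles shared by all columns. Its normalization method is not stated in them, and it served as an alternative only.

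Spots flagged as outliers were left out (87 to 394 per array, all arrays having 44397 spots), which removed Rpl9, Rpl34 and Rps12 from PBS replicate 2, so that their fits use 5 arrays. Copies of a probe were averaged, and the array's 75th percentile (674 to 876 on the linear scale) was subtracted on the log2 scale. Probes well above background on all arrays of at least 1 group were tested, and all 178 member probes passed. By their brightest probes, 85 of the 88 genes were so on all 6 arrays. Rpl9, Rpl34 and Rps12 were so on all 5 arrays on which they were measured. Accessions were matched without version to a RefSeq table of GRCm38.p6, which named 27234 of 39429 probes (69.1%). The probes' own annotation is of an earlier build, so gene coordinates are not given.

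IL-4 minus PBS was fitted in R 4.3.3 by limma 3.58.1 (lmFit, then eBayes), without a block, on all 29752 genes, with Benjamini-Hochberg adjusted p under 0.05 as the call. Gene values print the SE of this fit. The steps were run on simulated data with larger changes than any member showed and without a slide effect. That run therefore does not tell how well differences of the members' size are found with these slides. Named members are the 6 highest and 6 lowest differences, a list chosen by function, and genes whose probes differed by over 0.5, of which 1, and 1 gene of the comparison lists, is not reported here. The members and all lists were chosen with earlier results of these data known. The control is named after the sample labels, which say PBS, although the series text calls it untreated. Normexp (offset 50), used in alternatives only, took the median spot signal in place of the planned mean signal, for which the files used here gave no column. The number of arrays limits the precision.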

Additional observations from a re-analysis of the deposited data

How the results depend on the processing

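The count of members called higher was 0 in the setting used. It was 1 (1.14%) after quantile normalization, with scaling to the median and in the authors' deposited table, where 2.80%, 1.78% and 2.24% of all genes were called higher, 13 with normexp and the 75th percentile, and 0 to 22 when each array was left out in turn, the 22 coming without PBS replicate 1. The count called lower was 0, 1 with either normexp setting (7.06% of all genes with quantile normalization and 6.81% with the 75th percentile), and 0 to 12 with an array left out. Members above 0 numbered 54, but 31 after quantile normalization, 31 with normexp and quantile normalization, and 32 in the authors' table, and their median was then -0.078, -0.089 and -0.061. Against PBS replicate 1, members above 0 numbered 72, but 43, 39 and 42 in those settings, with medians of -0.0092, -0.018 and -0.0097. With an array left out, the members' median stayed between 0.038 and 0.14, and against PBS replicate 1 between 0.085 and 0.19.

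Calls in the comparison lists were 0 higher and 5 lower. They were 1 and 17 after quantile normalization, 7 and 28 with normexp and quantile normalization, 11 and 25 with normexp and the 75th percentile, and 1 and 16 in the authors' table. None was called lower on slide 1 only, with slide as a block, or without the filter on dim probes. Leaving out an array gave 0 to 20 higher and 0 to 77 lower, the largest counts coming without PBS replicate 1 (19.6% and 23% of all genes). The median of the list of other cytosolic ribosome genes, which holds Fau and Rack1, turned to -0.20, -0.19 and -0.20 in the 3 settings with shared quantiles, and that of elongation and TOP genes to -0.067, -0.035 and -0.057.

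Over all genes, 240 were called higher and 757 lower. The counts were 833 and 1803 after quantile normalization, 531 and 1202 with the median, 107 and 416 with the percentile over probes well above background, 976 and 2101 with normexp and quantile normalization, 2030 and 2025 with normexp and the 75th percentile, 667 and 1621 in the authors' table, 117 and 488 with the mean over probes, and 127 and 549 with flagged spots kept. They were 5 and 10 without the filter, 6 and 3 with slide as a block, 1 and 0 on slide 1 only, and 0 to 5812 and 0 to 6842 with an array left out. The median over all genes was 0.0055 with slide as a block and 0.0055 on slide 1 only. The cause of these changes was not tested.

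Only genes chosen by the naming rule are given here, and those of them that changed sign were all uncalled in the setting used. In other settings, Rpl39 was called lower with normexp and quantile normalization. Without PBS replicate 1, Rpl22 was called higher and Rpl29 and Rpl3 lower. The genes that changed sign after quantile normalization were Rpl13a (-0.17), Rpl36a (-0.057), Rpl7 (-0.034), Rps27 (-0.023), Rps29 (-0.047) and Rps6 (-0.19). In the authors' table the same 6 gave -0.16, -0.039, -0.032, -0.022, -0.045 and -0.18. With normexp and quantile normalization they were Rpl10l (0.025), Rpl13a (-0.20), Rpl22l1 (-0.026), Rpl5 (-0.014), Rpl7 (-0.018), Rps29 (-0.056) and Rps6 (-0.22). With normexp and the 75th percentile they were Rpl10l (0.012), Rpl13a (-0.031), Rpl22l1 (-0.017) and Rps6 (-0.033), and with the median Rpl13a (-0.0072). With the percentile over probes well above background they were Rpl39 (0.026) and Rplp1 (0.013), and with flagged spots kept Rpl39 (0.0065). With the mean over probes they were Rpl22 (-0.20), Rps29 (-0.12), Rps3a1 (0.21) and Rps6 (-0.020). With slide as a block, and equally on slide 1 only, they were Rpl10l (0.17), Rpl22l1 (-0.030), Rpl29 (0.11), Rpl3 (0.051), Rplp1 (0.13), Rps19 (0.086), Rps3a1 (0.070) and Rps4x (0.086). Leaving out an array gave ranges of -0.044 to 0.053 for Rpl13a, -0.042 to 0.080 for Rps6, -0.044 to 0.016 for Rpl39, -0.11 to 0.074 for Rplp1, -0.19 to 0.048 for Rpl10l and -0.054 to 0.072 for Rpl22l1.

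No label tells whether the replicate numbers pair the samples, and correlations over so few arrays cannot settle it. Deviations of same-numbered arrays correlated at 0.083, -0.016 and 0.30. Replicates 1 and 3 of each group correlated best with their own number, and replicate 2 did not. With a replicate block, 7 members were called higher (7.95%, against 6.06% of all genes) and 0 lower (against 6.61%). Of the comparison lists 5 genes were called higher and 7 lower, and of all genes 1804 and 1966.

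The results are limited by 3 arrays a group and by the slides, since IL-4 and PBS arrays were together only on slide 1, with 1 PBS array. Keeping flagged spots and the restriction to the 77 standard genes were chosen after seeing the data; they gave members' medians of 0.11 and 0.10.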
